A study of Mus musculus with 4 samples.

Results

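A set of 10 genes for proteins that act with the small GTPase Cdc42 were followed across 4 libraries of mouse alveolar cells: Cdc42ep1, Cdc42ep3, Cdc42ep4, Cdc42ep5, Cdc42se1, Pak2, Iqgap1, Wasl, Prkci and Pard6b. They were chosen by name as effectors and polarity partners of Cdc42, and all 10 are among the 17117 genes of the count table. Cdc42ep5 was highest in null cells after lung surgery, at 43.2 CPM (UMI counts scaled to the total of the library), and lowest in both control libraries, at 13.5 and 13.9 CPM. Cdc42ep4 and Prkci were lowest in the same null cells after surgery, at 30.1 and 31.9 CPM. Iqgap1 and Cdc42ep3 were also lower in null PNX than in null sham when set against the median gene, and Pak2, Cdc42se1 and Wasl stayed within 1.5-fold of it in every comparison.

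Cdc42 switches between a GTP-bound and a GDP-bound form, and its GTP-bound form binds effectors that shape actin, septins and the apical and basal sides of epithelial cells. The CDC42EP proteins, also called Borg proteins, bind active Cdc42 and septins. PAK2 is a kinase, N-WASP (Wasl) switches on the Arp2/3 actin nucleator, IQGAP1 is a scaffold, and PAR6B (Pard6b) links Cdc42 to the atypical protein kinase C iota (Prkci). Alveolar type II (AT2) cells make surfactant and renew the gas-exchange surface by turning into flat type I (AT1) cells, a change of shape in which the cytoskeleton is rebuilt.

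The study sequenced sorted AT2 cells by 10x Genomics 3′ single-cell RNA-seq, after pneumonectomy (PNX, removal of part of the lung) or sham treatment. Cdc42 AT2 null mice carried Sftpc-CreER, 1 floxed and 1 null Cdc42 allele (Cdc42flox/-) and the Rosa26-mTmG reporter, and control mice carried the same Sftpc-CreER and reporter with 1 floxed and 1 normal allele (Cdc42flox/+). Every group had 4 tamoxifen doses, on which Cre becomes active in Sftpc-expressing cells, so recombined cells turn green (the GFP+ sort) and control cells, too, can lose 1 of their Cdc42 alleles. The 4 libraries are null PNX, null sham, control PNX and control sham, and both PNX libraries were taken on day 21 after surgery. The labels give postnatal day 80 for all 4 and no number of mice per library. Each group is 1 library, so no difference has a replicate check, no p-value is given and every interval covers counting error only.

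Alveolar cells were those with Sftpc at 2% or more of their unique molecular identifiers (UMIs) or at least 1 Cldn4 UMI, and with Ptprc, Pecam1 and Col1a2 at 0. They numbered 1858 of 2370 cells in null PNX, 2630 of 3344 in null sham, 1972 of 2252 in control PNX and 1669 of 2111 in control sham, or 8129 of 10077 in all. Their UMIs summed to 20914459 in null PNX, 14528959 in null sham, 9977520 in control PNX and 8145379 in control sham. Null PNX cells stood apart by depth, with a median of 10595 UMIs against 4763 to 5129 in the other libraries, and 54 barcodes occurred in more than 1 library. All 11 AT2 markers were detected in every library, and their summed level was 111187 CPM in null PNX, 130074 in null sham, 177067 in control PNX and 186521 in control sham. Most of the difference between null and control libraries is Sftpc, on which cells were selected: without it the sums were 50242, 61561, 54302 and 58291 CPM. These sums hide single markers that went opposite ways. In null PNX against control PNX, Sftpb, Sftpd and Napsa were higher (Napsa 2061 against 1212 CPM) and the other markers were lower. Among the lower ones were Slc34a2 (1497 against 4348 CPM), Etv5 (136 against 379) and Abca3 (286 against 664). The 12 markers of the transitional state between AT2 and AT1 cells (such as Krt8 and Cldn4) summed to 14603 CPM in null PNX, 3498 in null sham, 889 in control PNX and 678 in control sham. Cldn4 was detected in 998 alveolar cells of null PNX (53.7%), 69 of null sham, 3 of control PNX and 0 of control sham, and 424 of the null PNX cells entered through Cldn4 alone. The 10 AT1 markers summed to 1762, 1054, 2187 and 1754 CPM in these libraries. Of other cell types, the summed T and NK cell, B cell, endothelial and fibroblast markers each stayed at or under 29.8 CPM and the ciliated ones at or under 64.8 CPM, with Ptprc, Pecam1 and Col1a2 at 0 by the rule. Macrophage and monocyte markers summed to 104, 34.6, 12.8 and 41.6 CPM and neutrophil markers to 111, 161, 56.1 and 97.6 CPM, while club cell markers (such as Scgb1a1) summed to 5367, 4753, 1057 and 5118 CPM in null PNX, null sham, control PNX and control sham. Their part in the members' values was not tested.

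Each level is the UMIs of a gene summed over the alveolar cells of a library, as CPM. Because the median gene was higher in the numerator in every comparison, by 0.22 (null PNX over null sham), 0.17 (null sham over control sham), 0.24 (null PNX over control PNX) and 0.14 (control PNX over control sham) on the log2 scale, each ratio was divided by the median ratio of all genes tested. The result is called the relative ratio, given with its exact 95% interval. A gene was counted as higher or lower when its relative ratio was 1.5-fold or more away from the median gene. Genes that averaged 10 CPM or more across the libraries were tested, 7060 in all. They include 9 of the 10 members, and Cdc42ep1 lay just under this limit at a mean of 9.95 CPM.

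Cdc42, the floxed gene, had 405 CPM in null PNX, 265 in null sham, 226 in control PNX and 184 in control sham. Its relative ratio was 1.28 (1.20–1.36) for null sham over control sham, against 1.52 (1.45–1.59) for null PNX over control PNX. Only 3′ ends were counted, and the floxed exon is not named in the labels, so these values check neither the deletion nor the labels.

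In null PNX over null sham, 1 of the 9 members tested was higher (Cdc42ep5) and 4 were lower (Cdc42ep3, Cdc42ep4, Iqgap1 and Prkci), beside 16.2% and 20.1% of all genes tested. With the plain ratio of CPM in place of the relative ratio, 27.5% and 12.5% of all genes were past the threshold, and the members past 1.5-fold were Cdc42ep5 above and Cdc42ep4 and Prkci below. In null PNX over control PNX, Cdc42ep5 was higher and Cdc42ep4 and Prkci were lower, beside 20.7% and 21.6% of all genes. The plain ratio put 32.2% of all genes higher and 13.9% lower, with Cdc42ep5 and Prkci past 1.5-fold. In null sham over control sham, Cdc42ep5 alone was higher and 0 members were lower, beside 7.97% and 6.74% of all genes, and the plain ratio put 14.6% of all genes higher and 3.94% lower, adding Cdc42ep4 and Iqgap1 above. In control PNX over control sham, 0 of 9 members passed 1.5-fold, where 6.7% of all genes did (3.57% higher, 3.13% lower), and the plain ratio put 6.29% higher and 1.98% lower. Either way, 5 of 9 members were called in null PNX over null sham, beside 36.3% of all genes, and 3 of 9 in null PNX over control PNX, beside 42.4%. The members were chosen with earlier results of these data known, so such shares are no result about them. No gene past 1.5-fold by the relative ratio changes its direction with the plain ratio, since the shift of the median gene is smaller than that. Library scaling factors cancel in the relative ratio, so another scaling can change it only through the genes that pass the filter. The 4 comparisons share libraries, so their values are not independent of each other.

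**Figure D1:**
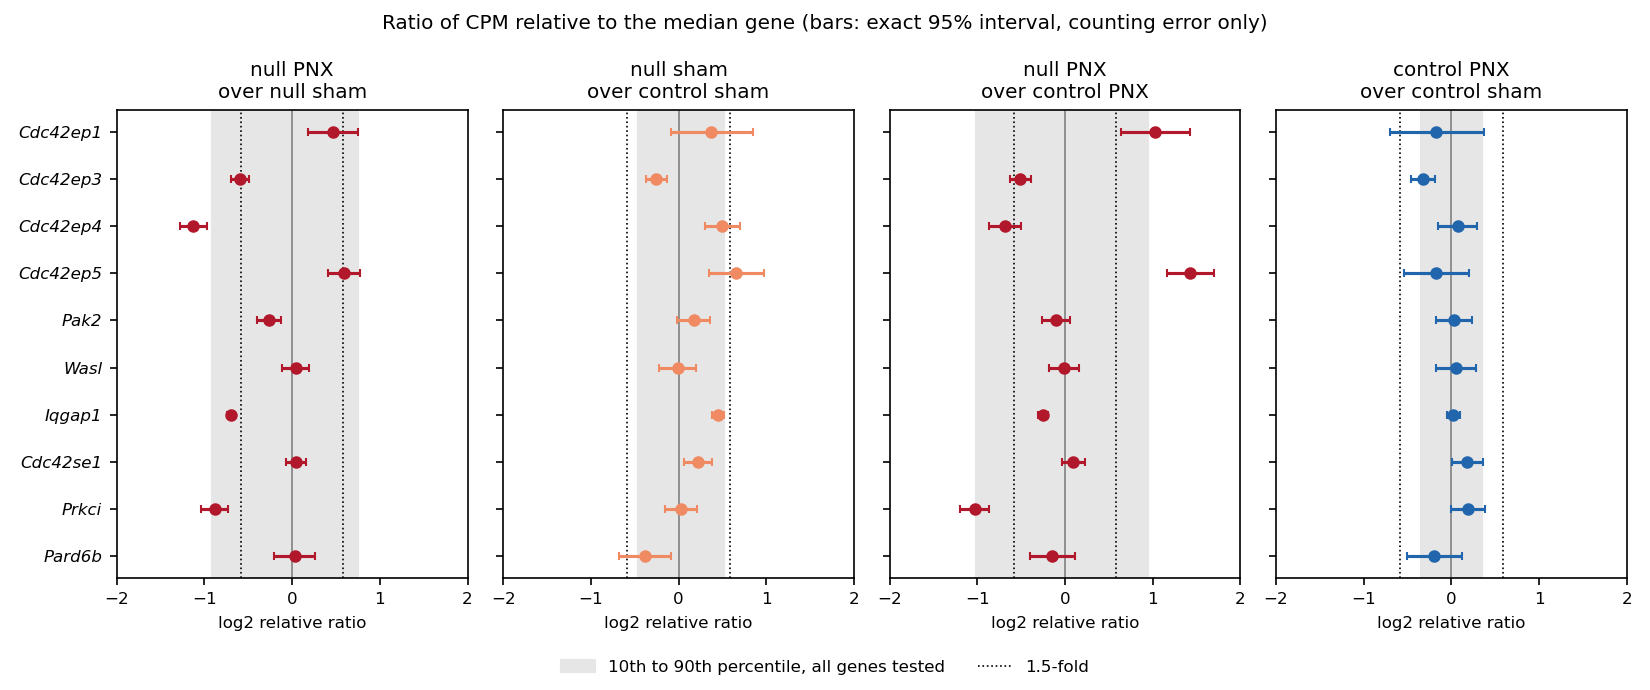
Relative ratio (log2) of each member in the 4 comparisons, with the exact 95% counting interval, the band from the 10th to the 90th percentile of the 7060 genes tested, and dotted lines at 1.5-fold. Cdc42ep5 lies to the right in the 3 comparisons that have a null library on top, Cdc42ep4 and Prkci lie to the left where null PNX is on top, and in control PNX over control sham every member is inside 1.5-fold.

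Cdc42ep5 (ENSMUSG00000063838.6, chr7:4151260-4164860, minus strand, mm10) encodes a Borg protein that binds active Cdc42 and acts on septins and actomyosin. It had 43.2 CPM in null PNX (95% Poisson interval 40.4–46.1), 24.6 in null sham (22.2–27.3), 13.5 in control PNX (11.3–16.01) and 13.9 in control sham (11.4–16.7). The order was null PNX above null sham above the control libraries, and the control libraries did not differ beyond counting error (ratio of control PNX to control sham 0.975, 0.754–1.26). The relative ratio was 1.503 (1.33–1.70) in null PNX over null sham, which is at the threshold itself, 1.57 (1.27–1.96) in null sham over control sham and came to 2.69 (2.25–3.25) in null PNX over control PNX. With cells of Cldn4 at 0 only, which leaves out every cell with Sftpc under 2% as well, the first of these was 0.926 (0.775–1.10), while that over control PNX was still 1.60 (1.28–2.00). The value in null PNX over null sham also stayed short of 1.5-fold with thinned or averaged cells, or with no filter on low values. The same held for cells with Sftpc at 5% or more or at least 1 Cldn4 UMI. It held, too, without the cell of each library that held the most Cdc42ep5 UMIs. Without the cells that entered through Cldn4 alone, the log2 relative ratio was 0.11 in null PNX over null sham and came to 0.95 in null PNX over control PNX.

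Cdc42ep1 (ENSMUSG00000049521.2, chr15:78842624-78850897, plus strand), a further Borg gene, was scarce and ran in the same order. It had 16.2 CPM in null PNX (14.5–18.0), 10.0 in null sham (8.49–11.8), 6.72 in control PNX (5.20–8.53) and 6.88 in control sham (5.19–8.93). Its relative ratio was 1.38 (1.13–1.69) in null PNX over null sham, 1.30 (0.946–1.80) in null sham over control sham and came to 2.03 (1.56–2.68) in null PNX over control PNX. With cells of Cldn4 at 0 only, null PNX over null sham was 0.985 (0.745–1.30). Null PNX over control PNX was then 1.36 (0.983–1.90), inside 1.5-fold. Being under the filter, Cdc42ep1 is in no count of members of the main analysis. With no filter on low values, with DESeq2 size factors or with totals that leave out Sftpc it also passed 1.5-fold over control PNX. Under these size factors or totals it passed the filter only through the null libraries, where it is high, so the call is a description.

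Cdc42ep4 (ENSMUSG00000041598.7, chr11:113726850-113751881, minus strand), a Borg gene whose protein also binds septins, ran the other way in null mice. It had 30.1 CPM in null PNX (27.8–32.6), 56.4 in null sham (52.6–60.4), 40.9 in control PNX (37.0–45.1) and 35.4 in control sham (31.4–39.7). Null sham was highest and null PNX lowest, and the control libraries lay between them without differing beyond counting error (1.16, 0.992–1.35). The relative ratio was 0.458 (0.412–0.509) in null PNX over null sham, 0.622 (0.548–0.706) in null PNX over control PNX and 1.41 (1.24–1.62) in null sham over control sham, just inside the threshold. With cells of Cldn4 at 0 only, the value over control PNX was 0.710 (0.608–0.828) and no longer past the threshold. Cells averaged one by one, or thinned to 2000 UMIs each, put the value of null sham over control sham past 1.5-fold.

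Cdc42ep3 (ENSMUSG00000036533.9, chr17:79333727-79355091, minus strand) took most of the Borg UMIs in the control libraries. It had 77.5 CPM in null PNX (73.8–81.4), 100.3 in null sham (95.2–105.6), 92.9 in control PNX (87.0–99.1) and 105.9 in control sham (99.0–113.3). Null PNX was the lowest, and the other 3 libraries, taken in order of level, did not differ from their neighbours beyond counting error. The ends of that order did, as the plain ratio of Cdc42ep3 in control PNX over control sham was 0.877 (0.798–0.963). Its relative ratio of 0.663 (0.617–0.712) in null PNX over null sham lay only just past the threshold and inside it with cells chosen by Sftpc alone. It was 0.704 (0.649–0.764) in null PNX over control PNX and 0.798 (0.727–0.877) in control PNX over control sham.

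Summed, the UMIs of these 4 Borg genes came to 167 CPM in null PNX, 191 in null sham, 154 in control PNX and 162 in control sham, and their makeup differed between the libraries. Cdc42ep5 made up 25.9% (24.4–27.3, exact binomial) of the Borg UMIs in null PNX, 12.9% (11.7–14.2) in null sham, 8.78% (7.42–10.3) in control PNX and 8.56% (7.11–10.2) in control sham. Cdc42ep3 made up 46.4%, 52.4%, 60.3% and 65.4% in the same libraries. Cdc42ep4 had its largest share in null sham, 29.5% (27.8–31.2), and its smallest in null PNX, 18.0% (16.8–19.4). These shares compare the libraries and not the abundance of one protein with another.

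**Figure D2:**
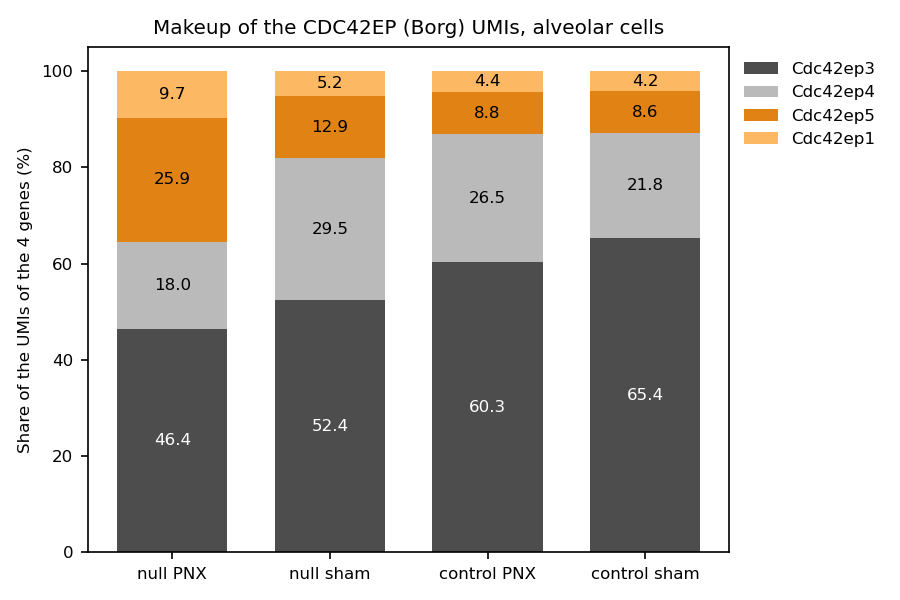
Share of each gene (%) among the UMIs of Cdc42ep1, Cdc42ep3, Cdc42ep4 and Cdc42ep5 in alveolar cells, 1 bar per library. The Cdc42ep5 segment is 25.9% in null PNX, against 8.56% to 12.9% in the other libraries, and the Cdc42ep3 segment is smallest in null PNX.

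The stretch of 250 bases upstream of the RefSeq start (GRCm38.p6) is shown for 2 members that were highest in null PNX, Cdc42ep5 and Cdc42ep1, and for 2 that were lowest there, Cdc42ep4 and Prkci. They are given 5′ to 3′ on the strand of the gene. The windows are chr7:4164706-4164955 (minus) for Cdc42ep5, chr15:78842397-78842646 (plus) for Cdc42ep1, chr11:113751816-113752065 (minus) for the farther upstream of the Cdc42ep4 starts and chr3:30995521-30995770 (plus) for Prkci. Capitals mark GGAATG or its reverse complement CATTCC, the core bound by TEAD factors, the DNA-binding partners of YAP and TAZ.
Cdc42ep5: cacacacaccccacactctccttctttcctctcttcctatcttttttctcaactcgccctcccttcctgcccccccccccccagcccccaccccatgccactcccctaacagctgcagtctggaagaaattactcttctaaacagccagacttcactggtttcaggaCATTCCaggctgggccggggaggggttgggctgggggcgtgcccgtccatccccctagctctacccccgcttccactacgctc
Cdc42ep1: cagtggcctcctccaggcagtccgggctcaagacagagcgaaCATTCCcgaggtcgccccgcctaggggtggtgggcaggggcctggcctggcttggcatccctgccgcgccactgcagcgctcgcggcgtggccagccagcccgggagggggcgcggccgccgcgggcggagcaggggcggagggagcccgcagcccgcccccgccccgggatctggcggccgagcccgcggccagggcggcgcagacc
Cdc42ep4: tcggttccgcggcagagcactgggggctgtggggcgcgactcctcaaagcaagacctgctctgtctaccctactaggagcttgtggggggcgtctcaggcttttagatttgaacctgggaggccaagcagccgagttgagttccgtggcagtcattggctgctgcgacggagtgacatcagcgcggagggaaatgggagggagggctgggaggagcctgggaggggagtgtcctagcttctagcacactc
Prkci: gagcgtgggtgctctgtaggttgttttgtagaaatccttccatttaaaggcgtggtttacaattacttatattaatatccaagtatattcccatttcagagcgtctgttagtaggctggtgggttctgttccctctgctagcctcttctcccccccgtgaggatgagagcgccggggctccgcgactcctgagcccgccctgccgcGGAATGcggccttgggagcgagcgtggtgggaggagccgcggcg
Of these 4 windows, those of Cdc42ep5, Cdc42ep1 and Prkci hold 1 match each, beginning at bases -83, -208 and -44 relative to the start. Over all members, 9 had a window, and 4 of these 9 (Cdc42ep1, Cdc42ep4 at a second start, Cdc42ep5 and Prkci) had a match (4 of 11 windows), against 12.6% of the 32851 windows in the table. The members with a match include genes that were higher and genes that were lower in null PNX. A match is a run of letters and says nothing of binding.

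**Figure D3:**
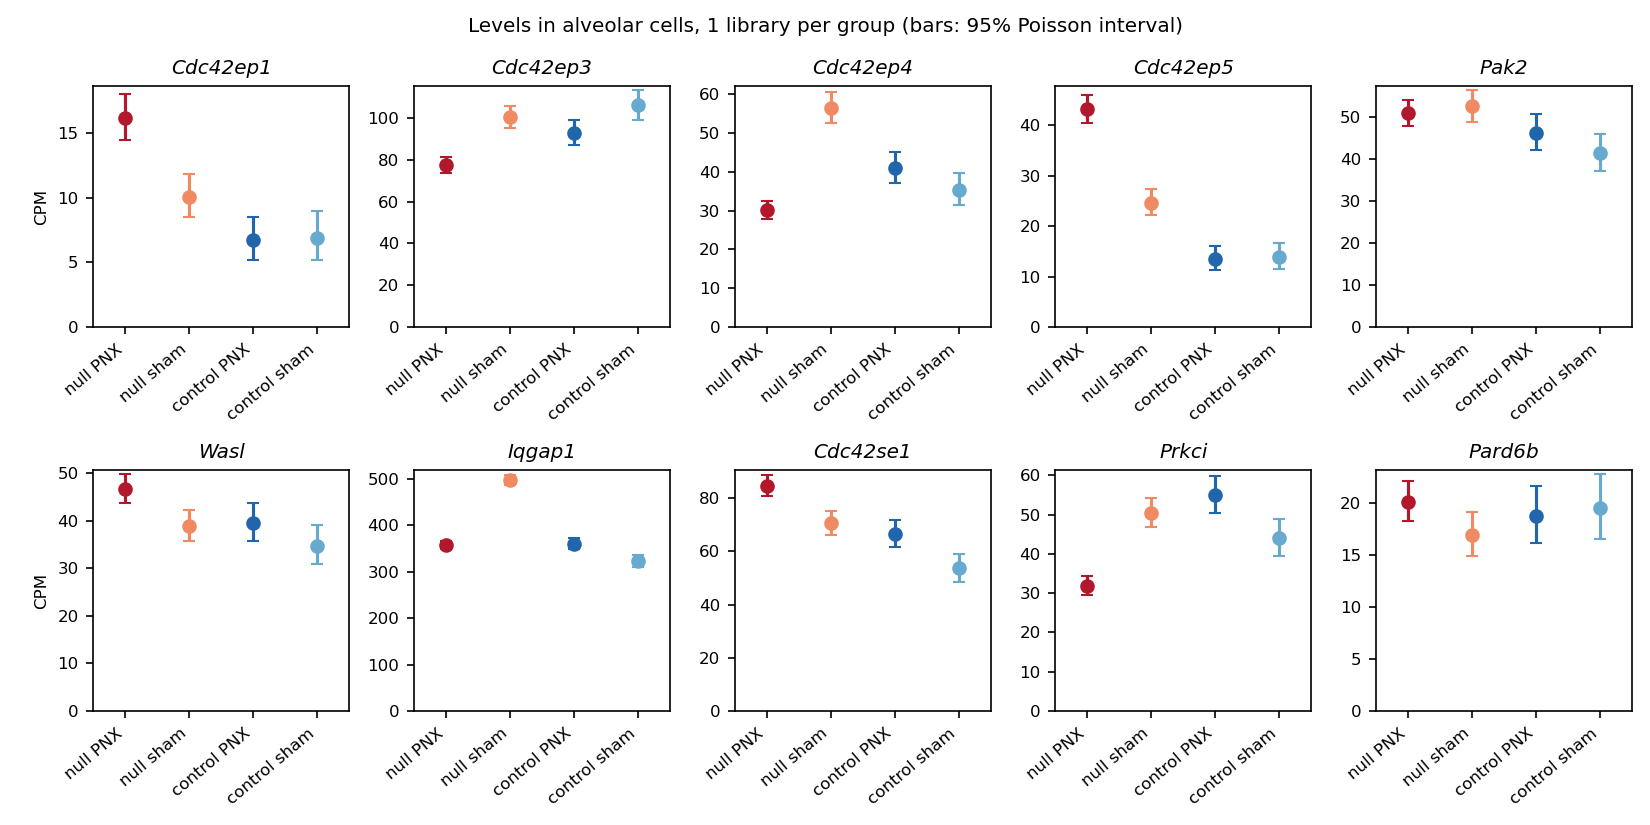
Level of each member (CPM) in alveolar cells of null PNX, null sham, control PNX and control sham, with 95% Poisson intervals, each axis starting at 0. Cdc42ep5 and Cdc42ep1 are highest in null PNX, Cdc42ep4 and Iqgap1 are highest in null sham, and Prkci is lowest in null PNX.

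Among the atypical protein kinase C and PAR6 partners, Prkci (ENSMUSG00000037643.14, chr3:30995747-31052959, plus strand), the kinase of the apical PAR complex, was low in null PNX alone. It had 31.9 CPM in null PNX (29.6–34.5), 50.5 in null sham (46.9–54.3), 55.0 in control PNX (50.5–59.8) and 44.0 in control sham (39.5–48.7). The interval of null PNX did not overlap those of the other libraries. The relative ratio was 0.542 (0.488–0.603) in null PNX over null sham and came to 0.490 (0.437–0.549) in null PNX over control PNX, against 1.02 (0.896–1.16) in null sham over control sham. It was 1.14 (0.996–1.31) in control PNX over control sham.

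Pard6b (ENSMUSG00000044641.7, chr2:168081004-168101203, plus strand), which ties active Cdc42 to this kinase, had 20.1 CPM in null PNX (18.3–22.1), 16.9 in null sham (14.9–19.2), 18.7 in control PNX (16.1–21.6) and 19.5 in control sham (16.6–22.8). No 2 neighbours in the order of its levels differed beyond counting error. The highest and lowest did, with a plain ratio of 1.19 (1.01–1.40) in null PNX over null sham. The relative ratio was 1.02 (0.869–1.20) in null PNX over null sham and 0.769 (0.627–0.944) in null sham over control sham.

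Iqgap1 (ENSMUSG00000030536.10, chr7:80711583-80825974, minus strand), a scaffold that binds Cdc42 and actin, was highest in null sham. It had 357.5 CPM in null PNX (349–366), 497 in null sham (486–509), 359.9 in control PNX (348–372) and 323 in control sham (311–335). Null PNX and control PNX did not differ beyond counting error in plain CPM (ratio 0.993, 0.954–1.03). The relative ratio was 0.617 (0.597–0.637) in null PNX over null sham, 1.36 (1.30–1.43) in null sham over control sham and came to 0.838 (0.805–0.873) in null PNX over control PNX. With cells of Cldn4 at 0 only, the first of these was 0.669 (0.641–0.698), just inside the threshold.

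The kinase Pak2 (ENSMUSG00000022781.8, chr16:32016290-32079342, minus strand), the small effector gene Cdc42se1 (ENSMUSG00000046722.14, chr3:95228732-95236409, plus strand) and Wasl (ENSMUSG00000029684.14, chr6:24613805-24665009, minus strand) stayed within 1.5-fold of the median gene in all 4 comparisons. Pak2 had 51.0 CPM in null PNX, 52.6 in null sham, 46.3 in control PNX and 41.4 in control sham. Cdc42se1 had 84.5 CPM in null PNX, 70.5 in null sham, 66.6 in control PNX and 53.5 in control sham. Wasl had 46.7 CPM in null PNX, 39.0 in null sham, 39.6 in control PNX and 34.7 in control sham. Wasl was close to the median gene in all 4 comparisons. Its relative ratio was 1.03 (0.925–1.14) in null PNX over null sham and 0.993 (0.860–1.15) in null sham over control sham. It was 0.995 (0.884–1.12) in null PNX over control PNX and 1.04 (0.888–1.21) in control PNX over control sham.

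The relative ratio of PNX to sham was set side by side in the null and control genotypes. For Cdc42ep4 it was 0.435 times as large in null as in control mice (0.362–0.522, counting interval), for Prkci 0.476 (0.402–0.564) and for Iqgap1 0.608 (0.573–0.645). For Cdc42ep5 it was 1.69 times as large (1.28–2.24) and for Cdc42ep1 1.55 (1.04–2.33). With cells of Cldn4 at 0 only, these last 2 were 1.04 and 1.11, and without the cells that entered through Cldn4 alone that of Cdc42ep5 was 1.22. With thinned cells, where Cdc42ep1 had 52, 50, 29 and 13 UMIs in null PNX, null sham, control PNX and control sham, its value was 0.709, on the other side of 1. For Cdc42ep3 (0.831, 0.739–0.933) and Pak2 (0.817, 0.690–0.967) the value was inside 1.5-fold, but the interval did not hold 1. For Wasl (0.991, 0.824–1.19), Cdc42se1 (0.907, 0.786–1.05) and Pard6b (1.17, 0.897–1.52) the interval held 1. With 1 library per group these differences between genotypes have no test, and neither genotype nor surgery can be told apart from the library.

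Within null PNX, the 998 cells with Cldn4 were set against the 860 without it. The cell rule used Cldn4 and Sftpc: cells without Cldn4 had to hold Sftpc at 2% or more, whereas 424 of those with it did not, and Sftpc was at 44633 CPM in Cldn4-positive and 84486 CPM in Cldn4-negative cells. The values of the classes are therefore a description. Cldn4-positive cells were deeper (median 11812.5 against 9628.5 UMIs) and also had more Krt8, at 3415 against 1330 CPM. Cdc42ep5 had 56.1 CPM in Cldn4-positive and 24.5 in Cldn4-negative cells, a relative ratio of 2.09 (1.79–2.46). Cdc42ep1 had 20.2 against 10.4 CPM (1.78, 1.39–2.29), and Pard6b 24.9 against 13.2 CPM (1.73, 1.39–2.17). Cdc42ep4 had 28.2 against 32.9 CPM (0.783, 0.668–0.920), and Prkci 34.3 against 28.5 CPM (1.10, 0.940–1.30). With cells classed after thinning to 2000 UMIs, the relative ratio was 1.76 (1.26–2.46) for Cdc42ep5, 1.92 (1.07–3.44) for Cdc42ep1 and 2.99 (1.86–4.84) for Pard6b. Cells of 1 library are not replicates, so these are values of that library only.

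Pard6b differed between these classes: cells of null PNX without Cldn4 had 13.2 CPM, against 16.3 in null sham and 18.8 in control PNX cells without Cldn4, where the relative ratios were 0.730 (0.577–0.918) and 0.621 (0.487–0.788). For Cdc42ep4 and Prkci the cells without Cldn4 were also lower in null PNX than in null sham. The relative ratios were 0.526 (0.457–0.603) and 0.522 (0.449–0.605). Over control PNX cells without Cldn4 they were 0.710 (0.608–0.828) and 0.457 (0.392–0.533). In the Cldn4-positive cells of both null libraries, 998 in null PNX and 69 in null sham, Prkci had 34.3 against 81.6 CPM (0.369, 0.272–0.511) and Cdc42ep4 28.2 against 53.2 CPM (0.464, 0.319–0.698). Cdc42ep5 had 56.1 against 42.6 CPM there (1.16, 0.770–1.82), an interval that holds 1. Cdc42ep1 had 20.2 against 23.0 CPM (0.766, 0.440–1.46) and Pard6b 24.9 against 31.9 CPM (0.684, 0.426–1.17), again with intervals that hold 1.

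**Figure D4:**
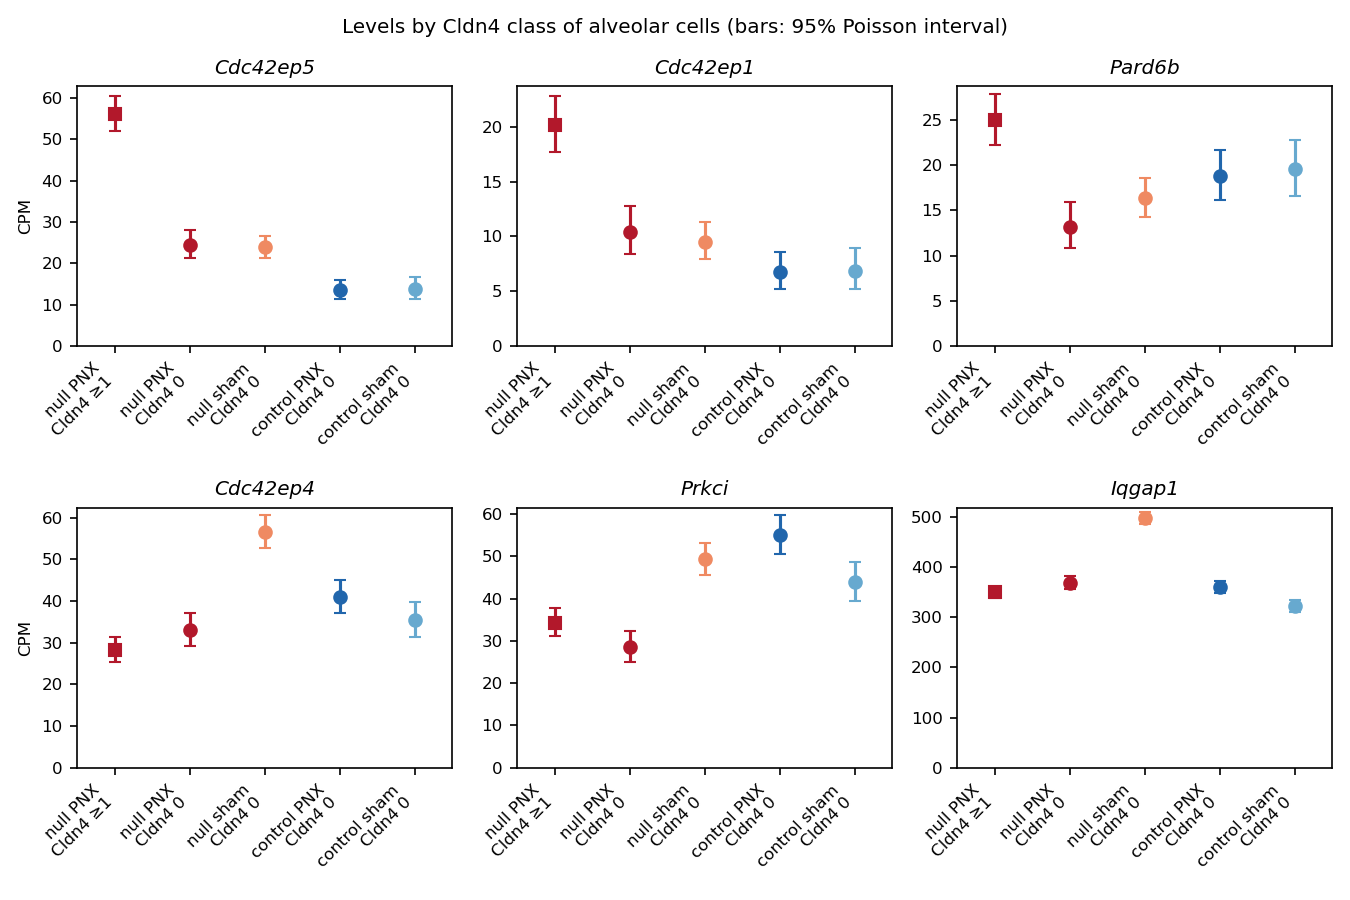
Level (CPM, 95% Poisson interval) of 6 members in alveolar cells of null PNX with at least 1 Cldn4 UMI and in cells with Cldn4 at 0 of null PNX, null sham, control PNX and control sham, each axis starting at 0. Of the classes shown, Cdc42ep5, Cdc42ep1 and Pard6b are highest in the Cldn4-positive cells of null PNX. Cldn4-positive cells of null sham are not shown. Prkci is lower in both classes of null PNX cells than in the other libraries. Cdc42ep4 is lower in both classes than in null sham. In null PNX cells without Cldn4 its interval (29.2–37.0 CPM) overlaps that of control sham (31.4–39.7 CPM).

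Krt8, a keratin of the transitional state, gave a split that null sham cells could enter too. In null sham, 215 cells with Krt8 at 0.2% or more of their UMIs had 78.7 CPM of Prkci, against 47.3 CPM in the 2415 cells below it, a relative ratio of 1.66 (1.35–2.03). In null PNX the same split, 757 against 1101 cells, gave 39.7 against 25.8 CPM (1.40, 1.19–1.63). Between the Krt8-rich cells of null PNX and those of null sham, the relative ratio of Prkci was 0.403 (0.326–0.5004), that of Cdc42ep4 was 0.383 (0.303–0.487), that of Iqgap1 was 0.513 (0.476–0.553) and that of Pard6b was 2.06 (1.25–3.66). Prkci was higher with Krt8 inside each null library and lower in null PNX than in null sham at like Krt8 class. The Krt8-rich cells of null sham held only 16 Pard6b UMIs. By the Krt8 split, Pard6b had a relative ratio of 0.609 (0.343–1.01) within null sham and 1.79 (1.47–2.19) within null PNX. Between the Cldn4-positive cells of null PNX and null sham, Pard6b lay on the other side of 1 (0.684, 0.426–1.17), with an interval that holds 1.

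How many cells showed a member depended on depth. Iqgap1 was seen in 50.8% of null PNX, 63.6% of null sham, 50.9% of control PNX and 46.3% of control sham cells thinned to 2000 UMIs, and in 92.9%, 89.3%, 77.0% and 73.2% unthinned. Cdc42ep5 was seen in 7.80% of null PNX, 5.26% of null sham, 2.08% of control PNX and 3.02% of control sham cells thinned, and in 30.9%, 12.4%, 6.44% and 6.59% unthinned. Thinning left out 0, 139, 101 and 113 shallower cells in that order. Among leukocytes (Ptprc at least 1, Sftpc under 2%), taken as a background for Cdc42ep5, 10.3% of 223 cells in null PNX had a Cdc42ep5 UMI at a median of 4385 UMIs, 1.23% of 244 in null sham at 3244.5, 0 of 101 in control PNX at 3156 and 0.535% of 187 in control sham at 3060. The null PNX leukocytes also held 1156 CPM of Krt8 and 240 CPM of Cldn4, against 346 and 28.6 CPM in null sham leukocytes, and the part of such epithelial RNA in their 23.2 CPM of Cdc42ep5 was not tested. Cdc42se1 and Pak2 were higher in leukocytes than in alveolar cells of every library, at 109 to 147 CPM and 63.7 to 97.3 CPM. For Pak2 in null PNX the intervals overlapped, at 51.1–78.5 CPM in leukocytes and 48.0–54.2 CPM in alveolar cells.

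Genes of the surrounding pathway were counted with the same rule. The counts of each list are to be read beside the shares of all genes tested, which were 16.2% higher and 20.1% lower in null PNX over null sham, 20.7% higher and 21.6% lower in null PNX over control PNX, 7.97% and 6.74% in null sham over control sham, and 3.57% and 3.13% in control PNX over control sham. Of 10 exchange factors (GEFs) that load Cdc42 or its relatives with GTP and passed the filter, of 28 listed, 0 were higher and 4 lower in null PNX over null sham, and 0 higher and 6 lower in null PNX over control PNX, where 20.1% and 21.6% of all genes were lower. Their median log2 relative ratio was -0.56 and -0.79, against 0 for all genes. Dock9, a GEF for Cdc42, had 30.0 CPM in null PNX against 97.9 in null sham (0.263, 0.239–0.289) and 91.1 in control PNX (0.278, 0.250–0.308). Mcf2l had 5.40 CPM in null PNX against 12.6 in null sham (0.368, 0.288–0.468) and 16.9 in control PNX (0.269, 0.210–0.344). Fgd6 was also lower in null PNX over null sham (0.651, 0.530–0.799), Arhgef26 in null PNX over control PNX (0.518, 0.421–0.638) and Vav2 in null sham over control sham (0.625, 0.516–0.759).

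Of 18 Arp2/3 subunits and WASP partners, the actin machinery that N-WASP drives, 6 were higher and 0 lower in null PNX over null sham, 7 higher and 0 lower in null PNX over control PNX, and 2 higher and 0 lower in null sham over control sham, where 16.2%, 20.7% and 7.97% of all genes were higher. Arpc1b, an Arp2/3 subunit, had 589 CPM in null PNX against 238 in null sham (2.12, 2.04–2.21) and 196 in control PNX (2.53, 2.41–2.65). Cttn (cortactin, which stabilises Arp2/3 branches) had 112 CPM in null PNX against 48.4 in null sham (1.98, 1.82–2.16) and 45.0 in control PNX (2.096, 1.89–2.32). Arpc2 had 702 CPM in null PNX against 262 in control PNX (2.26, 2.17–2.36), and the adaptor Nck1 had 26.3 against 13.4 CPM in null PNX and null sham (1.69, 1.43–2.00). Actr3 (1.82, 1.65–2.01) and Nckap1 (1.53, 1.33–1.77) were higher in null sham over control sham.

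Of 17 other polarity genes, null PNX over null sham had 0 higher and 1 lower, and null PNX over control PNX had 1 higher and 2 lower, fewer than the shares of all genes called, 36.3% and 42.4%. The lower gene in both was Pard3, the scaffold that binds PAR6 and the atypical kinase, with 27.8 CPM in null PNX against 52.4 in null sham (0.455, 0.408–0.508) and 59.1 in control PNX (0.397, 0.354–0.446). Amotl2, an angiomotin, had 20.03 CPM in null PNX against 49.2 in control PNX (0.344, 0.301–0.392), and 18.9 CPM in null sham against 44.1 in control sham (0.379, 0.323–0.445). Llgl2, a basolateral polarity gene, was at the upper threshold in null PNX over control PNX (1.501, 1.28–1.77). In null sham over control sham, 3 were higher, Pard6g (1.85, 1.36–2.55), Ywhag (1.77, 1.57–2.00) and Dlg1 (1.57, 1.28–1.94), and Amotl2 was the 1 lower. Pard6g had 9.92 CPM in control PNX and 6.51 in control sham. It passed the filter only through the null libraries, where it is high, so its call is a description.

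Of 15 other Cdc42 effectors, 2 were higher and 4 lower in null PNX over null sham, 3 higher and 2 lower in null PNX over control PNX, 2 higher and 1 lower in null sham over control sham, and 1 higher and 0 lower in control PNX over control sham. Either way these are 6 of 15 and 5 of 15 in the first 2 comparisons, near or under the 36.3% and 42.4% of all genes. Pak6, a group II PAK kinase, had 7.32 CPM in null PNX against 16.1 in null sham (0.390, 0.316–0.480) and 30.4 in control PNX (0.203, 0.166–0.248). Cdc42bpa, an MRCK kinase that drives actomyosin, had 41.1 CPM in null PNX against 85.1 in null sham (0.414, 0.379–0.452) and 61.5 in control PNX (0.563, 0.507–0.626). Baiap2l1 was lower in null PNX over null sham as well (0.548, 0.507–0.592). Bin3 was higher, with 28.9 CPM in null PNX against 12.6 in null sham (1.97, 1.67–2.34) and 9.32 in control PNX (2.62, 2.102–3.29), as were Pak1 over null sham (1.84, 1.52–2.24) and Trip10 (2.14, 1.79–2.56) and Tnk2 (1.52, 1.23–1.88) over control PNX. In null sham over control sham, Tnk2 (1.53, 1.19–1.99) and Cdc42bpa (1.502, 1.34–1.68) were higher and Pak6 was lower (0.538, 0.445–0.650). Pak1 was the gene higher in control PNX over control sham, at 17.5 against 6.75 CPM (2.36, 1.74–3.26). Pak1 was under 10 CPM in both sham libraries, and Bin3 in both control libraries. Each passed the filter only through libraries where it is high, so the calls of Pak1 and Bin3 are a description.

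Of 15 GTPase-activating and GDP-dissociation inhibitor genes (GAPs and GDIs), which turn Cdc42 off or hold it in the cytosol, 1 was higher and 2 lower in null PNX over null sham, 3 higher and 5 lower in null PNX over control PNX, 3 higher and 0 lower in null sham over control sham, and 0 higher and 2 lower in control PNX over control sham. The 3 of 15 called in the first comparison are under the 36.3% of all genes, and the 8 of 15 in the second stand beside 42.4%. Arhgdig, a GDI gene, had 26.5 CPM in null PNX, 15.0 in null sham, 3.31 in control PNX and 4.54 in control sham, so it passed the filter only through the null libraries, where it is high, and its calls are a description. Its relative ratio was 6.77 (4.76–9.94) in null PNX over control PNX, 2.93 (2.06–4.27) in null sham over control sham, 1.52 (1.29–1.78) in null PNX over null sham and 0.663 (0.402–1.09) in control PNX over control sham, where the interval holds 1. The Cdc42 GAP gene Arhgap31 had 39.6 CPM in null PNX against 60.6 in null sham (0.560, 0.509–0.616) and 83.1 in control PNX (0.402, 0.365–0.443). Dlc1 was lower in null PNX against both null sham (0.601, 0.529–0.683) and control PNX (0.564, 0.491–0.650). Arhgap5 (1.66, 1.40–1.99) and Arhgdib (1.71, 1.30–2.299) were higher and Arhgap29 (0.540, 0.454–0.644) lower in null PNX over control PNX. In null sham over control sham, Abr (1.95, 1.59–2.40) and Arhgdia (1.55, 1.46–1.65) were higher, and Arhgdib was lower in control PNX over control sham (0.480, 0.343–0.667).

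Of 5 septins, the filament proteins that Borg proteins bind, Sept11 was higher in all 4 comparisons, with 49.6 CPM in null PNX, 17.4 in null sham, 8.82 in control PNX and 4.30 in control sham, and relative ratios from 1.87 (1.25–2.85) in control PNX over control sham to 4.75 (3.82–5.97) in null PNX over control PNX. Sept11 was under 10 CPM in both control libraries. It passed the filter only through the null libraries, where it is high, so its calls are a description. Sept8 was higher in null sham over control sham (1.61, 1.32–1.98), and 0 septins were lower in any comparison.

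**Figure D5:**
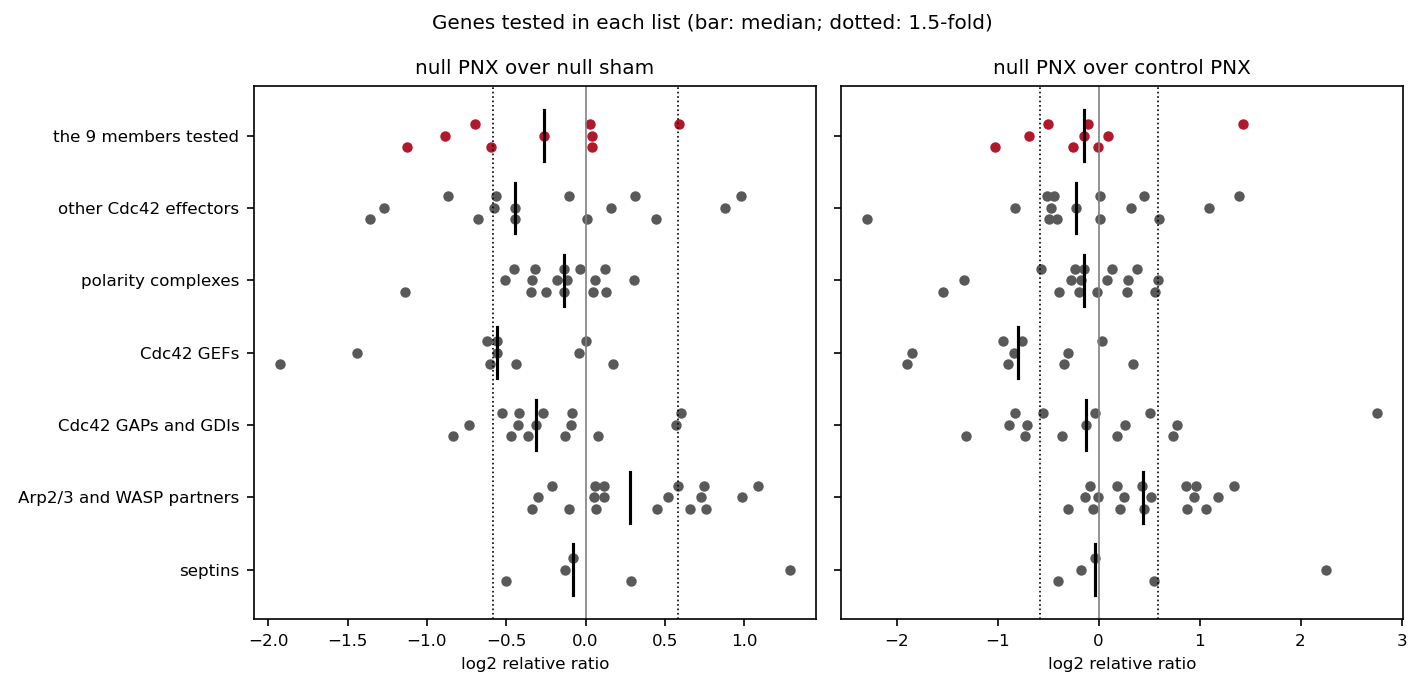
Relative ratio (log2) of each gene tested among the members (9 of 10) and in the 6 pathway lists, for null PNX over null sham (left) and over control PNX (right), with the median of each list as a bar and dotted lines at 1.5-fold. The GEF medians lie lowest, at -0.56 and -0.79, and the Arp2/3 and WASP partner genes past 1.5-fold all lie to the right.

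In control PNX over control sham, 0 of 10 GEFs, 0 of 18 Arp2/3 and WASP partners and 0 of 17 polarity genes passed 1.5-fold either way, beside 6.7% of all genes.

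For the 3 members with the widest range over the 4 libraries, the genes of at least 50 CPM whose centred log2 levels came closest were picked out of 2227. For Cdc42ep5 they were Acadl, Lgals9 and Dnpep, whose largest distance in any library was 0.10 to 0.11 on the log2 scale. Lgals9 had 153 CPM in null PNX, 91.6 in null sham, 55.1 in control PNX and 54.8 in control sham. For Cdc42ep1 they were Tspo, Gsta4 and Abhd11, within 0.08. For Cdc42ep4 they were Cebpa, a transcription factor of AT2 cells, Cd36 and Snd1, within 0.08, and Cebpa had 233 CPM in null PNX, 445 in null sham, 317 in control PNX and 283 in control sham. With 4 libraries, likeness of this kind is a description only.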

How the data were processed

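UMI counts per gene and cell were deposited by the authors as one table of raw, unnormalized counts. Cell Ranger 2.1.0, Seurat 2.3.4 and the build mm10 are named, without a role, in the submitters' processing notes. The ending of each barcode gave the library, per the labels. Cells were selected as described above and no doublet caller was run. Doublets with leukocytes, endothelial cells or fibroblasts leave only where Ptprc, Pecam1 or Col1a2 was detected, so other doublets remain. Counts were summed over alveolar cells per library and divided by their total (CPM), with exact Poisson intervals for levels and exact Clopper-Pearson 95% intervals for ratios and shares (Python 3.11.15, scipy 1.17.1). PCR and droplet effects are outside these intervals. A call is 1.5-fold from the median ratio of the 7060 genes with a mean of at least 10 CPM. The calculation was tested on simulated data. For ratios of ratios, a Wald interval of the log ratio was used. Alternatives used edgeR 4.0.16 TMM factors and DESeq2 1.42.0 size factors on the 4 sums, other cell rules, thinning, averaging of cells and other filters. Gene positions are from GENCODE M21 and promoter windows from RefSeq (GRCm38.p6), where 9 of the 10 members matched. The members and gene lists were chosen with earlier results of these data known. All members are named, and of each list up to 3 called genes per direction and comparison, those farthest from the median gene. The comparisons by Krt8 within null PNX, of Krt8-rich cells between null libraries, of Cldn4-positive cells between null libraries and of classes after thinning were added after seeing the data. One further gene list is not reported here.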

Additional observations from a re-analysis of the deposited data

Results flagged for a closer look

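For 5 members the ratio of PNX to sham lay on opposite sides of the median gene in null and control mice and differed by more than 1.5-fold. As the log2 relative ratio in null mice minus that in control mice, the difference was -1.20 for Cdc42ep4, -1.07 for Prkci, -0.72 for Iqgap1, 0.76 for Cdc42ep5 and 0.63 for Cdc42ep1. These differences were not tested, since each group is 1 library. In control mice the log2 relative ratios behind them were small, from -0.17 for Cdc42ep5 and Cdc42ep1 to 0.19 for Prkci, and the counting interval of each of the 5 held the median gene, so no direction is established there. That of Iqgap1 in control mice was 0.02, and -0.01 with thinned cells.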

How the results depend on the processing

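No paired analysis was possible because each group is 1 library. TMM, DESeq2 size factors and totals without Sftpc rescale libraries only, which cancels in a relative ratio. Under the alternatives that could move it, 274 of 308 relative ratios of single genes stayed inside their counting interval and 34 left it. Of the 44 ratios in each setting, 30 stayed inside with Cldn4 at 0 only and 29 with thinned cells. All 44 did without the top cell of each gene or with Sftpc at 5% or more or Cldn4. Of the ratios past 1.5-fold in the main analysis, 1 changed sign: Cdc42ep5 in null PNX over null sham was -0.11 (log2) with cells of Cldn4 at 0 only. Of those not past it, 20 changed sign, 7 of them outside their interval. With Cldn4 at 0 only, these were Cdc42ep1 (-0.02), Wasl (-0.15) and Pard6b (-0.45) in null PNX over null sham, and with thinned cells Wasl there (-0.30), Pak2 in null PNX over control PNX (0.07), and Cdc42ep1 (0.76) and Pard6b (0.32) in control PNX over control sham. The null minus control difference of Cdc42ep1 (log2) was -0.50 with thinned cells. Members past 1.5-fold in null PNX over null sham, 5 in the main analysis, were 3 with cells chosen by Sftpc alone, 3 with Cldn4 at 0 only, 3 with the plain ratio and 2 at a mean of 50 CPM, where 3 members were tested. The share of all genes past it was 36.3% in the main analysis and 33.5%, 29.2%, 40.0% and 36.5% in these settings. In null sham over control sham, 1 in the main analysis, the members past it were 3 with the plain ratio, 2 with cells averaged, 2 with thinned cells and 0 at 50 CPM. The share of all genes was 14.7% in the main analysis and 18.6%, 14.8%, 17.7% and 15.2% in these settings. In null PNX over control PNX, 3 members were past it in the main analysis, beside 42.4% of all genes. With no filter on low values there were 5, where 29.3% of all genes were higher and 27.3% lower. There were 4 with DESeq2 size factors or totals without Sftpc, beside 42.3% and 42.5% of all genes. The member added was Cdc42ep1, which passed the filter there only through the null libraries. With the plain ratio there were 2, beside 46.1%, and at 50 CPM 0, beside 43.4%. With Cldn4 at 0 only there were again 3 members, with Pard6b in place of Cdc42ep4, beside 35.6% of all genes. In control PNX over control sham, 0 members were past 1.5-fold in the main analysis, beside 6.7% of all genes. With thinned cells 1 member was (Cdc42ep5, lower), beside 10.4% of all genes. The fewer calls at 50 CPM come with fewer members tested, and the cause of the other shifts was not tested. Cdc42ep1, with 56 to 338 UMIs per library, is limited by counting error.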
